A study of Mus musculus with 8 samples.

Results

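Chemokines and their receptors were followed in livers of male C57BL/6 mice (C57BL/6J in the study's methods), all wild type and by the labels 14 to 17 weeks old when feeding began, that received standard chow (STD) or an atherogenic diet (ATH), which was high in fat and cholesterol and contained cholic acid, for 4 weeks. RNA from 4 livers per diet was hybridized to 1-color Agilent arrays, 1 mouse per array. All probes whose name in the array files began with Ccl, Cxcl, Xcl, Cx3cl, Ccr, Cxcr, Xcr or Cx3cr followed by a digit were taken. This gave 67 probes for 51 genes, of 41174 probes and 27962 gene names in all: 35 ligands and 16 receptors. Each gene was read by its probe with the highest mean over the 8 arrays, and in 48 genes that probe was detected in 3 or more livers of one diet. The remaining 3 were Ccl22, which attracts Ccr4-bearing T cells, and the receptors Ccr1 and Ccr8.

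Chemokines are small secreted proteins that guide migrating cells along gradients, and they are sorted by the spacing of their first cysteines into CC, CXC, C and CX3C families. They bind receptors with a heptahelical membrane fold that couple to inhibitory G proteins, which drive actin remodeling and integrin activation. In liver, chemokines are made by Kupffer cells, sinusoidal endothelium, stellate cells and hepatocytes, and they guide monocytes, lymphocytes and neutrophils into the tissue. Ccr2 with its ligand Ccl2 is known for the entry of blood monocytes, and Cxcr3 with Cxcl9 and Cxcl10 for that of T cells.

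Levels are log2 processed signals set against the 75th percentile of the same array, so that 0 is that percentile, and a difference is the ATH mean minus the STD mean on this scale. Gene-wise tests are by limma over all 31056 detected probes, and called means a Benjamini-Hochberg false discovery rate under 5%. The share of spots well above background was 72.3% to 77.8% over the 8 arrays. All STD arrays lay on one slide and all ATH arrays on another, so for each difference given here the slide and the diet cannot be told apart. A scaling by spike-in probes moved the median of all genes from -0.14 to 0.17 and no scaling moved it to 0.31. Of all genes tested, 4.05% were called higher and 5.3% lower, against 25.9% called higher of 27.2% called in all without scaling.

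Of the 48 measured genes, 7 were called higher on the atherogenic diet and 1 lower. Among them the ligands Ccl2, Ccl3, Ccl4, Ccl6 and Cxcl10 and the receptor Ccr2 were higher, and the receptor Xcr1 was lower. These 8 are to be read against 9.35% of all 16554 genes called in either direction. The measured ligands had a median difference of 1.18 and the receptors of 0.54, against -0.14 over all genes. Among the 48, 39 lay above 0 and 9 below, where 34.9% of all genes lay above 0. Since 10 of the 48 passed the detection filter on ATH arrays alone, which favors a higher value, the 38 detected on both diets are given too: 29 of them lay above 0, with a median of 1.05. Of these 38, 6 were called higher and 1 lower, against 635 and 814 of the 15722 genes detected on both diets.

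**Figure D1:**
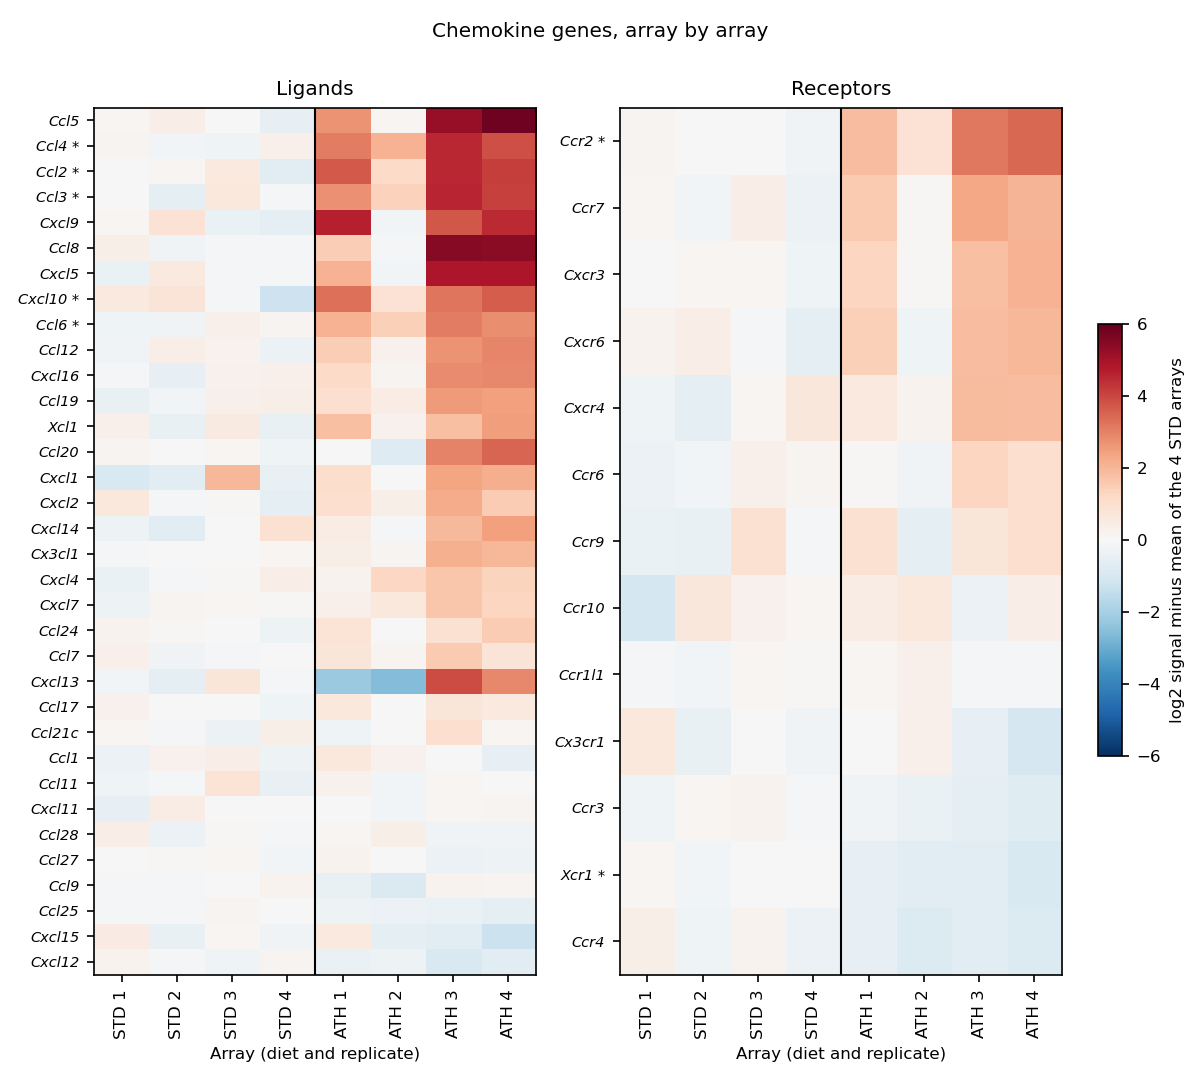
Heat map of 34 ligands (left) and 13 receptors (right) on the 4 STD and 4 ATH arrays; color is the log2 signal minus the gene's mean over the 4 STD arrays, rows run from the largest to the smallest difference between diets, and an asterisk marks a gene called at 5%. The ATH replicate 2 column is paler than the other ATH columns in most rows that are red, and Cxcl13 is below the STD mean on ATH replicates 1 and 2 and above it on 3 and 4.

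Many of the genes lie next to each other. On GRCm38.p6, Ccl2, Ccl7, Ccl11, Ccl12, Ccl8 and Ccl1 occupy chr11:82035577-82179812, and all 6 lay above 0, with 1 called. Ccl5, Ccl9, Ccl6, Ccl3 and Ccl4 occupy chr11:83525778-83664683, and 3 of the 5 were called higher (4.05% of all genes were), while Ccl9 lay at -0.23. Cxcl9, Cxcl10 and Cxcl11 occupy chr5:92321331-92363296 and differed by 3.17, 2.75 and 0.03. Cxcl5, Cxcl7, Cxcl4, Cxcl15, Cxcl1 and Cxcl2 occupy chr5:90759298-90905938, with 5 of the 6 above 0 and none called.

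Upstream sequences are shown for 3 ligands called higher that have an entry and for Cxcl9, the neighbor of Cxcl10 with the larger but uncalled difference. Each holds the 250 bases before the annotated start, from RefSeq on GRCm38.p6, printed 5′ to 3′ on the gene's own strand. Capitals mark matches to 5 motifs searched: the NF-kappaB consensus, the AP-1 element TGANTCA, the interferon response core (GAAA, 2 bases of any kind and GAAA), the GAS element TTCNNNGAA, all on both strands, and the TATA box TATAAA on the gene's strand. The regions are chr5:92348890-92349139, minus strand for Cxcl10, chr5:92328080-92328329, minus strand for Cxcl9, chr11:83649379-83649628, minus strand for Ccl3 and chr11:83593088-83593337, minus strand for Ccl6.
Cxcl10: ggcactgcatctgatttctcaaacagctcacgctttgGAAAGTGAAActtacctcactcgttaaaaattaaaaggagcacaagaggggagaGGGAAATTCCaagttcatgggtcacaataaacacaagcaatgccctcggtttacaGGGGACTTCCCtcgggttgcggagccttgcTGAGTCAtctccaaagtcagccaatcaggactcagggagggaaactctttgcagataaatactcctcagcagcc
Cxcl9: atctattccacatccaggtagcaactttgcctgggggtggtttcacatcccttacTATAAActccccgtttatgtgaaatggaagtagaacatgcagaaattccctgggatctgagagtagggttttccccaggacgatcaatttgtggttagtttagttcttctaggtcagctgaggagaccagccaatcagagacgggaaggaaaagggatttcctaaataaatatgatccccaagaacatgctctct
Ccl3: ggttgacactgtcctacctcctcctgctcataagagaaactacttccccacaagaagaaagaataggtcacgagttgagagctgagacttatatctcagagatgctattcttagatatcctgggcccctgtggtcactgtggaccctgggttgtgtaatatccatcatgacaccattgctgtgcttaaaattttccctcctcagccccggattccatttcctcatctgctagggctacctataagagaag
Ccl6: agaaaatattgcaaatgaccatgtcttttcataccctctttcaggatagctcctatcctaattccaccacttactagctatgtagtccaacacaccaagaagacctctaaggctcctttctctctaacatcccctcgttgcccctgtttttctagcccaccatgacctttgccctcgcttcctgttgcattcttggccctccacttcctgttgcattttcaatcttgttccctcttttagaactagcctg
The Cxcl10 window held the interferon response core, then NF-kappaB matches in 2 places and an AP-1 element closest to the start, in that order. In the Cxcl9 window only the TATA letters were matched, and the Ccl3 and Ccl6 windows held none of the 5. Among all 32851 upstream windows, the NF-kappaB consensus was found in 7.25%, the AP-1 element in 6.75%, the interferon response core in 2.98%, the GAS element in 7.02% and the TATA letters in 7.59%. Of the 38 genes of the families with an entry, 9 held the NF-kappaB consensus in at least 1 window: Ccl1, Ccl20, Ccl9, Ccr1, Ccr3, Ccr6, Cxcl1, Cxcl10 and Cxcl2. Of these 9, Cxcl10 was called and Ccr1 was not tested, and of all 38 genes with an entry 5 were called. The AP-1 element was found in 6 of the 38, the GAS element in 4 and the TATA letters in 10. The interferon response core was found in 3 of the 38, Ccl19, Cxcl10 and Cxcl14. These matches describe the letters and were not set against binding or activity.

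Of the CC ligands, 4 of 19 measured were called, all higher, against 4.05% of all genes called higher. Ccl3 among them passed the detection filter on ATH arrays alone. Ccl2, the main attractant of Ccr2-bearing monocytes, stood at -1.43, -1.29, -0.83 and -2.07 on the 4 STD arrays and 2.29, -0.28, 3.10 and 2.75 on the ATH arrays. All ATH values lay above all STD values, with ATH replicate 2 far under the other ATH arrays. The difference was 3.37 (10.3-fold, SE 0.67, n = 4 per diet, limma adjusted p = 0.0263).

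Ccl3, a ligand of Ccr1 released by activated macrophages, was above background on 1 of the 4 STD arrays, at -5.08, -5.62, -4.46 and -5.16, and on all ATH arrays, at -2.36, -3.68, -0.53 and -0.98. Ccl4, a related attractant of T cells and monocytes, lay at -3.42, -3.74, -3.86 and -3.29 on STD and -0.49, -1.50, 0.92 and 0.29 on ATH. In both genes the diets did not overlap and ATH replicate 2 was the lowest ATH array. Ccl3 differed by 3.19 (SE 0.62, limma adjusted p = 0.0253), a size that rests on STD values mostly not above background. Ccl4 differed by 3.38 (10.4-fold, SE 0.45, limma adjusted p = 0.0088). With normexp background correction the differences were smaller and still called, at 1.16 for Ccl3 (adjusted p = 0.0426) and 2.22 for Ccl4 (adjusted p = 0.00881). Ccl4 was the 1 gene of the families that also passed 1%, as 0.64% of all genes did.

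Ccl6, a rodent CC chemokine made by myeloid cells, was bright on every array, at 0.39, 0.41, 0.94 and 0.81 on STD and 2.73, 2.06, 3.72 and 3.41 on ATH. Its diets did not overlap, the ATH spread was narrower than for Ccl2, Ccl3 or Ccl4, and it rose by 2.35 (5.09-fold, SE 0.34, limma adjusted p = 0.0112). Ccl9, its close relative and neighbor, lay at 3.10, 3.08, 3.21 and 3.39 on STD and 2.76, 2.31, 3.41 and 3.38 on ATH. These overlapped, with a difference of -0.23 (95% interval -0.79 to 0.33) that turned to 0.22 without scaling.

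Cxcl10, an interferon-inducible ligand of Cxcr3, lay at -0.05, 0.17, -0.76 and -1.85 on STD and 2.68, 0.27, 2.57 and 3.01 on ATH. ATH replicate 2 exceeded the highest STD array only narrowly, and the other ATH arrays were close together and much higher. The difference was 2.75 (6.74-fold, SE 0.64, limma adjusted p = 0.0392, and adjusted p = 0.0791 in a fit blocked on replicate number). That blocked fit called 9 genes of the families, and 4.81% of all genes.

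Leaving out single arrays changed most of these calls. Ccl4 and Ccl6 were called whichever of the 8 arrays was left out. Without ATH replicate 1, Ccl2 and Cxcl10 were not called (adjusted p = 0.0507 to 0.0708) and Cxcl4 and Cxcl7 were called higher. Without ATH replicate 3, without ATH replicate 4 and without STD replicates 1, 3 or 4, all calls but those of Ccl4 and Ccl6 were lost, with adjusted p from 0.0572 to 0.0991. Without STD replicate 2 Xcr1 was called besides Ccl4 and Ccl6, and the other calls were lost (0.0556 to 0.0688). Over the same settings the share of all genes called fell to between 1.41% and 6.31%. Without ATH replicate 2, 24 genes of the families were called higher and 1 lower, and 14.8% of all genes were called.

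**Figure D2:**
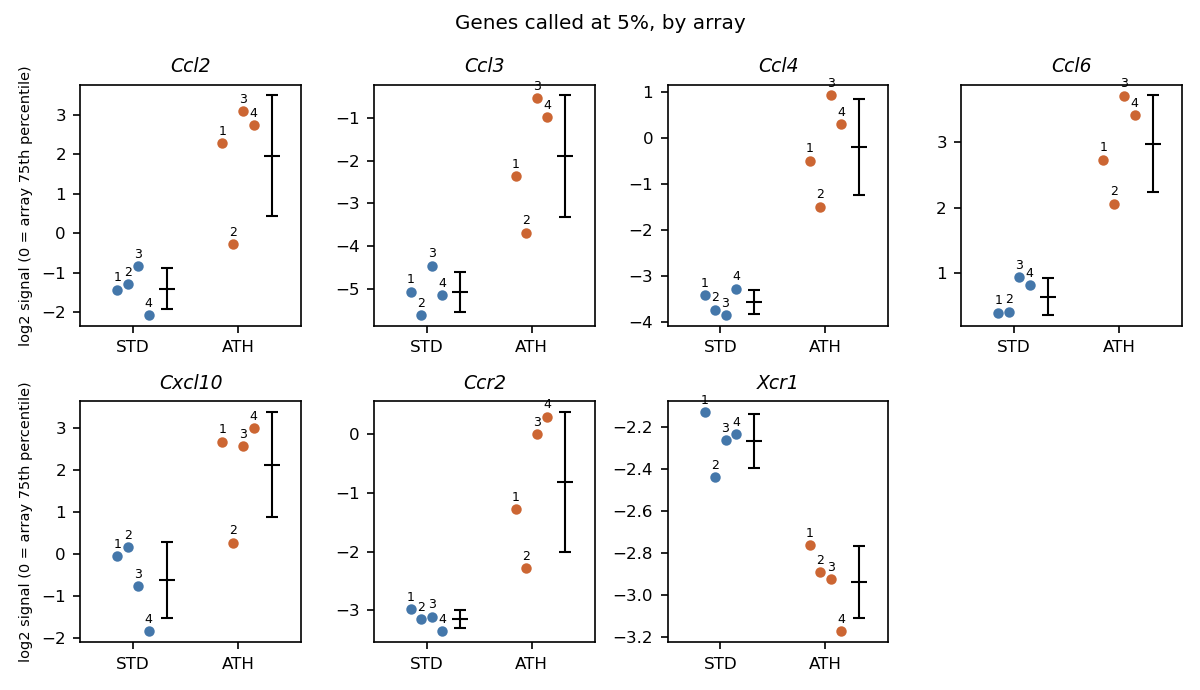
Of the genes called at 5%, 7 are shown, each on its own log2 axis; numbered points are replicates on the STD and ATH diets and the bars beside them show the mean and SD of 4 arrays. In all 7 panels the points of the diets do not overlap, and ATH replicate 2 is the lowest ATH point in the 6 genes shown that rose.

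Larger differences than some of these were not called. Ccl5, which attracts T cells and monocytes, had the largest difference of all 48 and stood at 0.38, 0.63, 0.22 and -0.23 on STD and 2.97, 0.38, 5.47 and 6.09 on ATH. ATH replicate 2 lay inside the STD range and ATH replicates 3 and 4 lay far above it, giving a difference of 3.48 (SE 1.08, limma adjusted p = 0.0792). The second Ccl5 probe gave 3.64 (adjusted p = 0.0747).

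Ccl8, listed here as a ligand of Ccr8, was at -4.63, -5.18, -5.06 and -5.02 on STD, where 2 arrays were above background, and at -3.48, -5.02, 0.50 and 0.44 on ATH. The same array, ATH replicate 2, fell within the STD range, and the difference was 3.08 (SE 1.16, adjusted p = 0.122). Cxcl9, the interferon-gamma-induced ligand of Cxcr3, lay at 0.54, 1.26, 0.02 and -0.17 on STD and 5.06, 0.27, 4.12 and 4.89 on ATH, a difference of 3.17 (SE 0.96, adjusted p = 0.0741). Its ATH replicates 1, 3 and 4 stood above every STD array and ATH replicate 2 did not.

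Cxcl5, an epithelial attractant of neutrophils, was not well above background on any STD array, at -7.91, -6.92, -7.62 and -7.61, and was so on 3 ATH arrays, with values of -5.43, -7.67, -2.65 and -2.67. Against the lowest signal that counted as above background it was at least 1.82-fold higher on ATH, with a fitted adjusted p of 0.103. Ccl12, a mouse relative of Ccl2 that binds Ccr2, was likewise not above background on STD, at -6.03, -5.46, -5.64 and -6.21, and lay at -4.38, -5.56, -3.15 and -2.90 on ATH. The bound there was at least 2.68-fold higher (adjusted p = 0.066). These bounds, 0.86 for Cxcl5 and 1.42 for Ccl12 on the log2 scale, hold for the processed signals only. With normexp the differences were smaller, at 0.52 for Cxcl5 (adjusted p = 0.13) and 0.36 for Ccl12 (adjusted p = 0.106).

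Of the 48 genes, 19 that were above background on at least 3 STD arrays were more than 2-fold higher on ATH, and 13 of these were not called. The ATH SD exceeded the STD SD by a median of 2.32 times over the 48, against 1.41 times over all genes. ATH replicate 2 was the lowest ATH array in 34 of the 48 genes (70.8%), where 20.3% of all genes and 70.6% of the 670 genes called higher had it lowest. Its median distance from the STD mean over the 48 genes was 0.07, compared with 0.63 for ATH replicate 1, 1.80 for ATH replicate 3 and 1.70 for ATH replicate 4. Without ATH replicate 2 the adjusted p was 0.00642 for Ccl5, 0.0237 for Ccl8, 0.00176 for Cxcl9, 0.00958 for Cxcl5 and 0.00763 for Ccl12. Leaving out other arrays raised it to as much as 0.174, 0.269, 0.176, 0.232 and 0.149 for the same genes.

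**Figure D3:**
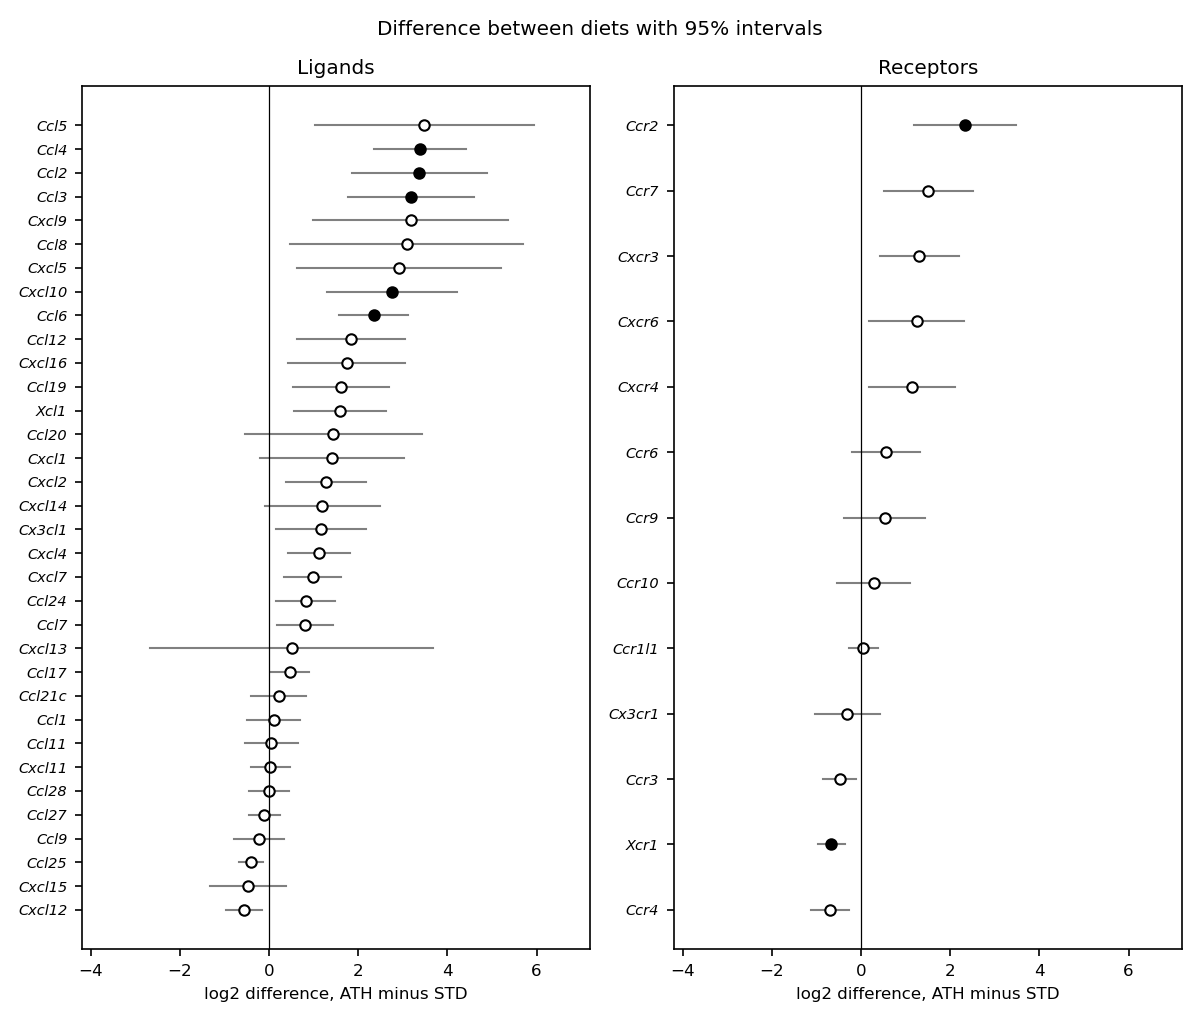
Differences between diets (ATH minus STD, log2) with unadjusted 95% intervals of the limma fit for 34 ligands and 13 receptors; filled points are called at 5%. Cxcl13 has the widest interval, from -2.68 to 3.68, while Ccl4 and Ccl6 have narrow intervals for the size of their differences.

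Cxcl13, the follicular attractant of B cells, split the ATH arrays. Its STD values were -2.65, -3.02, -1.77 and -2.55 and its ATH values -4.71, -5.08, 1.43 and 0.37. ATH replicates 1 and 2 lay below every STD array and ATH replicates 3 and 4 above every STD array, so the mean difference of 0.50 (95% interval -2.68 to 3.68, adjusted p = 0.838) describes none of the 4 livers. Cxcr5, its receptor, which the files list as Blr1 outside the naming rule, differed by 0.43 (adjusted p = 0.274). Ccl20, the Ccr6 ligand, had a related spread, with ATH values of -5.18, -5.97, -2.22 and -1.72 against STD values of -5.06, -5.22, -5.12 and -5.45. ATH replicates 1 and 2 were within or below the STD range there, and the difference was 1.44 (adjusted p = 0.306).

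Other ligands of neutrophils besides Cxcl5 were measured. Cxcl1, a main neutrophil attractant, lay at -0.36, -0.08, 2.55 and 0.10 on STD and 1.61, 0.59, 2.90 and 2.72 on ATH, so that STD replicate 3 reached the level of the high ATH arrays (difference 1.40, adjusted p = 0.228). Cxcl2 differed by 1.27 (adjusted p = 0.0794), was above background on 1 STD array and with normexp differed by 0.06 (adjusted p = 0.694). Their receptor Cxcr2, listed as Il8rb, differed by -0.48 (adjusted p = 0.109), and its other probe by -0.12. Of 8 neutrophil markers tested none was called (9.35% of all genes were), with 8 of 8 above 0; S100a8 (1.93) and S100a9 (1.73) were called with the replicate number as a block (adjusted p = 0.0271 and 0.0301). Their summed relative signal was 1.64 to 3.65 on the STD arrays and 3.23 to 15.2 on the ATH arrays.

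Lymphoid and homeostatic ligands gave mixed values. Ccl19, the Ccr7 ligand of lymphoid tissue, lay at -0.28, 0.01, 0.49 and 0.52 on STD and 1.18, 0.62, 2.72 and 2.66 on ATH. The diets did not overlap, and the difference of 1.61 was called in the blocked fit and not without the block (adjusted p = 0.0681, and 0.0494 with the block). Xcl1, the lymphotactin made by NK and T cells, differed by 1.59 (adjusted p = 0.0636). Cxcl16, the membrane-bound ligand of Cxcr6, differed by 1.75 (adjusted p = 0.0914) by its brighter probe, and its other probe was called, at 1.44 (adjusted p = 0.0395, and 0.0569 with the block).

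Cxcl12, the stromal ligand of Cxcr4, had STD values of 5.74, 5.42, 5.29 and 5.73 and ATH values of 5.17, 5.24, 4.63 and 4.88. Every ATH array lay below every STD array, yet the difference of -0.57 was not called (adjusted p = 0.0811), and without scaling it was -0.12. Ccl25, the thymic and gut ligand of Ccr9, showed the same order, at 1.84, 1.83, 2.05 and 1.92 on STD and 1.63, 1.56, 1.52 and 1.31 on ATH (difference -0.41, adjusted p = 0.0729, and 0.04 without scaling). In all, the diets did not overlap in 14 of the 48 genes, against 22.2% of all genes. In 10 of them ATH was higher and in 4 lower, against 7.59% and 14.6% of all genes.

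The platelet chemokines were also measured. Cxcl4, which is stored in platelet granules, lay at -1.67, -1.40, -1.19 and -0.86 on STD and -1.05, -0.03, 0.38 and 0.05 on ATH and differed by 1.12 (adjusted p = 0.0573, and 0.046 with the block), with ATH replicate 1 inside the STD range. Cxcl7, also a platelet protein, differed by 0.98 (adjusted p = 0.067), with no overlap of the diets. ATH replicate 1, not 2, was the lowest ATH array in both. None of 4 platelet markers was called (9.35% of all genes were). Of the 4, 3 lay above 0 and 1 below, at -0.76, with a list median of 0.24. The summed signal of the 4 was 2.83 to 5.41 on the STD arrays and 1.96 to 2.84 on the ATH arrays.

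Several ligands stayed near 0, and others differed more without being called. Ccl1, Ccl11, Ccl28 and Cxcl11 differed by 0.10, 0.05, 0.01 and 0.03, with 95% intervals reaching from -0.54 to 0.70 at most. Ccl11, the eosinophil attractant eotaxin, was above background on 1 STD and 3 ATH arrays, and with normexp was called lower (-0.30, adjusted p = 0.0471). Ccl27 differed by -0.11, Ccl21c, a Ccr7 ligand, by 0.21, and Cxcl15 by -0.47. The eosinophil ligand Ccl24 differed by 0.82 (adjusted p = 0.112), Ccl17 by 0.47 (adjusted p = 0.147) and Cxcl14 by 1.20 (adjusted p = 0.206).

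By the brighter probe of each receptor, Ccr2 showed the largest difference. Ccr2, the monocyte receptor for Ccl2, Ccl7 and Ccl12, lay at -2.98, -3.15, -3.11 and -3.36 on STD and -1.28, -2.29, 0.01 and 0.30 on ATH. The STD arrays were tightly grouped, every ATH array was above them, and ATH replicate 2 was again the lowest. Ccr2 rose by 2.34 (5.05-fold, SE 0.51, limma adjusted p = 0.0329, and 0.0551 with the block), and with normexp background correction by 1.56 (adjusted p = 0.0256). Its dimmer probe gave a difference of 0.72 (adjusted p = 0.134, and 0.0451 with the block).

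Ccr7, the lymph node homing receptor, stood at -4.31, -4.57, -4.04 and -4.78 on STD and -2.85, -4.34, -2.10 and -2.36 on ATH, with ATH replicate 2 inside the STD range (difference 1.51, adjusted p = 0.0676). The T cell receptor Cxcr3 had STD values of -2.47, -2.40, -2.41 and -2.76 and ATH values of -1.23, -2.46, -0.71 and -0.42. Here too ATH replicate 2 was among the STD arrays, and the difference of 1.31 was not called (adjusted p = 0.0705).

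Cxcr6, a receptor of liver-resident T and NKT cells, differed by 1.25 (adjusted p = 0.125). The B cell and dendritic cell receptor Ccr6 differed by 0.55 (adjusted p = 0.305), Ccr9, a gut homing receptor, by 0.53 (adjusted p = 0.411) and Ccr10, a receptor of skin-homing T cells, by 0.28 (adjusted p = 0.636). Ccr1l1, a mouse relative of Ccr1, gave 0.04 (95% interval -0.28 to 0.37). Ccr3, the eosinophil receptor, differed by -0.47 (adjusted p = 0.101).

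Ccr4, a receptor of regulatory and type 2 helper T cells, lay at -3.62, -4.22, -3.75 and -4.32 on STD and -4.45, -4.81, -4.64 and -4.80 on ATH, with no overlap. Its difference of -0.70 was called lower with the replicate number as a block and not without it (adjusted p = 0.0535, and 0.0479 with the block). Xcr1, the receptor of cross-presenting dendritic cells, lay at -2.13, -2.44, -2.26 and -2.24 on STD and -2.76, -2.89, -2.92 and -3.17 on ATH. All 4 ATH arrays were below the STD arrays by this probe, and it fell by 0.67 on the log2 scale (SE 0.13, limma adjusted p = 0.0264, and 0.0501 with the block). Without scaling the difference was -0.22 and was not called.

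Probes of the same gene did not always move together. Of 12 genes with at least 2 tested probes, 3 had probes of opposite sign: Xcr1, Cx3cr1 and Cx3cl1. The probe pairs of 3 genes are shown by the first 30 bases of each 60-base probe, 5′ to 3′ as the array files list them, with whole-probe positions on mm7, the build of the array design. The Xcr1 probes map to chr9:123574844-123574903 (brighter) and chr9:123571166-123571225 (dimmer), the Cx3cr1 probes to chr9:119747387-119747446 and chr9:119745795-119745854, all on the minus strand, and the Ccl7 probes to chr11:82128577-82128636 and chr11:82128729-82128788 on the plus strand.
Xcr1 brighter probe: cagcacaacatcttcttcctcctctccatg
Xcr1 dimmer probe: ttttttaagtgtctgttaatgagggggaaa
Cx3cr1 brighter probe: ttcttccccagttgtgacatgaagagggac
Cx3cr1 dimmer probe: caagaatgtcttcatgcattcactgactcc
Ccl7 brighter probe: gcatggaagtctgcgctgaagcccatcaga
Ccl7 dimmer probe: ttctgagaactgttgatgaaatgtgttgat
In these pairs the dimmer probe lay downstream in the direction of transcription, by 3678 bases for Xcr1, 1592 for Cx3cr1 and 152 for Ccl7. For Cx3cl1 it lay 9443 bases upstream and for Cxcr4 580 bases upstream, and over all 16 probe pairs of the families the dimmer probe was downstream in 7 and upstream in 9.

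The dimmer Xcr1 probe was not well above background on any STD array, at -5.42, -5.43, -6.0 and -5.20, and was so on all ATH arrays, at -4.47, -4.68, -3.88 and -3.55. It was called higher, at least 2.29-fold (adjusted p = 0.0276, and 0.0501 with the block), against the call in the other direction by the brighter probe. With normexp the dimmer probe gave 0.07 and was not called (adjusted p = 0.596). Cx3cr1, the receptor for the membrane-bound chemokine Cx3cl1 on patrolling monocytes and tissue macrophages, lay at -3.31, -4.41, -3.95 and -4.16 on STD and -4.0, -3.63, -4.47 and -4.95 on ATH by its brighter probe (difference -0.30, adjusted p = 0.557). By the dimmer probe it was below background on STD, at -7.28, -6.03, -6.08 and -5.08, and at -4.07, -4.08, -1.96 and -1.83 on ATH. That probe was called higher, at least 5.35-fold on the processed signals (adjusted p = 0.0289), with no overlap of the diets. The bound is 2.42 on the log2 scale, and with normexp the probe gave 0.89 (adjusted p = 0.0401). The dimmer Xcr1 and Cx3cr1 probes passed the detection filter on ATH arrays alone, which favors a higher value.

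Ccl7, a monocyte attractant that binds Ccr1, Ccr2 and Ccr3, differed by 0.80 by its brighter probe (adjusted p = 0.0967). Its dimmer probe, below background on STD at -6.32, -5.48, -5.49 and -7.23, reached -2.66, -4.31, -0.60 and -1.79 on ATH. It was called higher, at least 8.5-fold on the processed signals (adjusted p = 0.0244, and 0.0501 with the block). That bound is 3.09 on the log2 scale, and with normexp the dimmer Ccl7 probe gave 1.11 (adjusted p = 0.045). This probe passed the detection filter on ATH arrays alone, which favors a higher value. Cx3cl1, or fractalkine, differed by 1.16 by the brighter probe (adjusted p = 0.126) and by -0.51 by the other (adjusted p = 0.194). Both probes of Cxcr4, the receptor for Cxcl12, lay above 0, at 1.15 (adjusted p = 0.121, and 0.0482 with the block) and 1.68 (adjusted p = 0.0296). The dimmer of them was above background on 1 of the 4 STD arrays, and with normexp its difference was 0.19 (adjusted p = 0.217). The dimmer Cxcr4 probe likewise passed the filter on ATH arrays alone. Which probe of a pair follows the transcript was not tested.

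**Figure D4:**
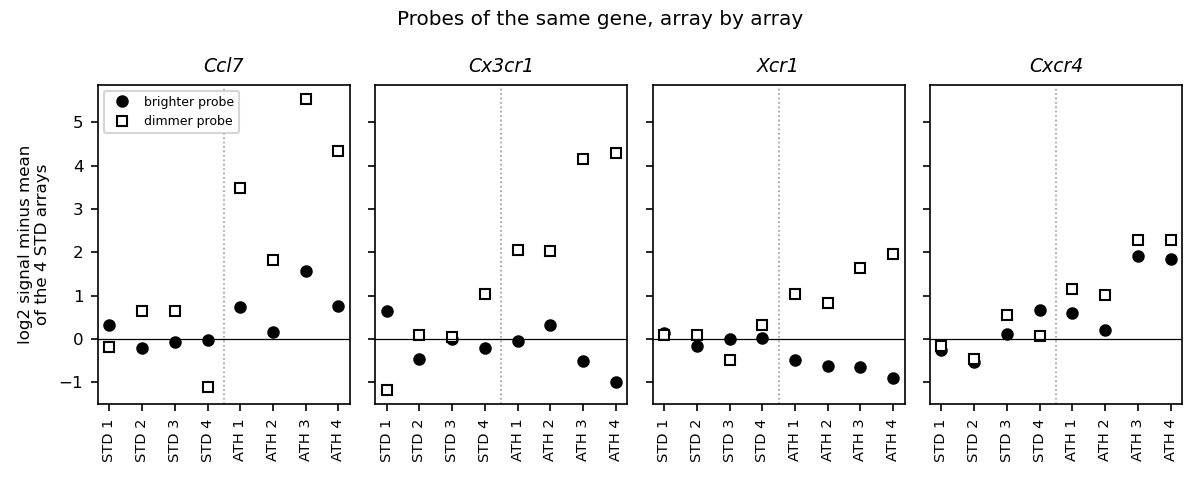
Log2 signal minus the probe's own mean over the 4 STD arrays for the brighter (filled circles) and dimmer (open squares) probes of Ccl7, Cx3cr1, Xcr1 and Cxcr4 on the 8 arrays. The dimmer probes of Ccl7, Cx3cr1 and Xcr1 lie above 0 on all ATH arrays, while the brighter Xcr1 probe lies below 0 on all of them and the Cxcr4 probes move together.

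Ligands were then set beside their receptors. Of 39 ligand and receptor pairs listed from general knowledge, 24 had both partners measured under the naming rule. Ccr2 and Ccl2 were both called higher. By the brighter probes, Cxcr3 with Cxcl10 had the ligand alone called, and Ccr2 with Ccl7 and Ccl12 the receptor alone. In 17 of the 24 pairs neither partner was called higher. These counts depend on the probe. The dimmer probes of Ccl7, Cx3cr1, Cxcr4, Cxcl16 and Xcr1 were called higher, and that of Ccr2 was not called. By sign, 14 pairs had both partners above 0 and in 10 the partners were of opposite sign. Among the latter were Cxcr4 at 1.15 with Cxcl12 at -0.57, Ccr4 at -0.70 with Ccl17 at 0.47, and Xcr1 at -0.67 with Xcl1 at 1.59. The last of these depends on the Xcr1 probe. With normexp Ccl17 turned to -0.10 and Ccr4 was at -0.42, so that pair then shared a sign. Ackr3, the scavenging receptor of Cxcl11 and Cxcl12 that the files list as Cmkor1, differed by 0.72 (adjusted p = 0.226).

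**Figure D5:**
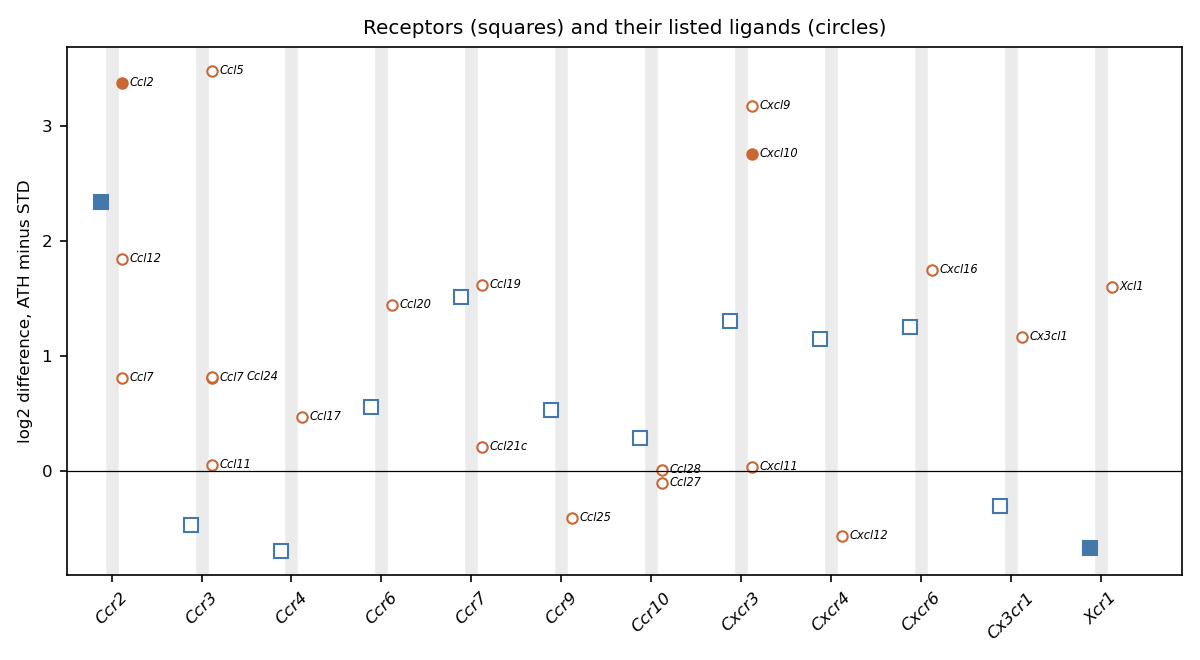
Log2 difference (ATH minus STD) of 12 measured receptors (squares) and their listed measured ligands (circles, named); filled symbols are called at 5%. The Ccr2 column holds a filled square and the filled circle of Ccl2 above 0, the Cxcr4 and Ccr9 columns hold ligands below 0 under receptors above 0, and the Xcr1 square is filled and below 0.

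Genes outside the families that take part in the same system were read from lists. Of 36 genes that transmit or damp chemokine receptor signals, 8 rose and 1 fell (9.35% of all genes were called), with a median difference of 0.74. Rgs1, a regulator that shortens G protein signaling in leukocytes, had the largest difference, from -3.51, -4.0, -4.24 and -4.05 on STD to -1.70, -2.45, -0.49 and -0.96 on ATH (2.55, adjusted p = 0.0131, and 1.36 with adjusted p = 0.0145 under normexp). The G protein subunit gene Gng2 (2.0, adjusted p = 0.0443), the Src family kinase gene Fgr (1.96, adjusted p = 0.0253) and the hematopoietic small GTPase gene Rac2 (1.95, adjusted p = 0.0383) also rose. With the replicate number as a block 3 of the 36 were called, and Gng2 and Rac2 were not (adjusted p = 0.0674 and 0.0598).

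Among 13 other chemotactic genes, 1 rose and 1 fell (9.35% of all genes were called), and neither was called with the block. Ccrl2, an atypical receptor that presents chemerin, rose by 1.71 (adjusted p = 0.0349, and 0.0511 with the block), and Cmklr1, the signaling receptor for chemerin, fell by 0.67 on the log2 scale (adjusted p = 0.0371, and 0.0703 with the block). Rarres2, which encodes chemerin, differed by -0.15. The formyl peptide receptor genes Fpr1 and Fpr2 differed by 1.46 and 2.91 and were not called (adjusted p = 0.107 and 0.0937). The scavenging receptors Ackr1, Ackr2 and Ackr4 differed by 0.19, -0.31 and -0.33.

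Of 12 tested genes whose products cleave or display chemokines, 2 rose and 1 fell (4.05% and 5.3% of all genes), and Mmp12 alone was called with the block. Mmp12, the macrophage elastase, was not above background on STD, at -7.47, -7.31, -7.28 and -7.21, and lay at -4.19, -4.68, -2.35 and -4.2 on ATH, at least 3.05-fold higher (adjusted p = 0.00699). With normexp its difference was 0.49 and was not called (adjusted p = 0.0879). Mmp12 passed the detection filter on ATH arrays alone, which favors a higher value. The heparan sulfate carriers Sdc3 and Sdc1 moved apart, with Sdc3 at 1.08 (adjusted p = 0.0399, and 0.0523 with the block) and Sdc1 at -0.74 (adjusted p = 0.0329, and 0.0537 with the block). Dpp4, which trims several chemokines, differed by -0.16.

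Markers of the cells that make or carry chemokine receptors moved as well, and in whole liver RNA more cells of a type and more RNA per cell cannot be told apart. Of 10 tested monocyte and recruited macrophage markers 7 rose (median 2.52), against 4.05% of all genes called higher. They were led by Gpnmb (7.0, at least 32.4-fold, not above background on any STD array), Itgax (3.91), Trem2 (3.16) and Lgals3 (2.77). The summed relative signal of the 10 was 48.3 to 63.6 on the STD arrays and 98.9 to 482 on the ATH arrays, with ATH replicate 2 the lowest ATH array at 98.9. Of 13 Kupffer cell and macrophage markers 3 rose (4.05% of all genes), Marco (3.43), Cd68 (1.92, adjusted p = 0.0551 with the block) and Cd5l (1.69). The list median was 1.41. The sum was 75.3 to 83 on the STD arrays and 128 to 471 on the ATH arrays, with ATH replicate 2 again the lowest ATH array. Cd163, the hemoglobin scavenger receptor of macrophages, differed by -1.33 (adjusted p = 0.109), with 3 of the 4 ATH arrays below every STD array. The Kupffer-specific Clec4f differed by 0.32 (adjusted p = 0.29).

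No T cell, B cell or NK cell marker was called, of 9, 5 and 7 tested (9.35% of all genes were). The T cell sums were 1.6 to 2.42 on the STD arrays and 1.61 to 5.31 on the ATH arrays, with Cd8a at 2.60 (adjusted p = 0.0873) Cd4 close to 0, Cd8b1 at -0.16 (adjusted p = 0.689) and Cd3e at -0.71 (adjusted p = 0.0844), and 3 of the 9 below 0. The B cell sums were 0.956 to 1.27 on the STD arrays and 0.844 to 2.21 on the ATH arrays and the NK cell sums 0.333 to 0.571 on the STD arrays and 0.427 to 1.16 on the ATH arrays. Of 6 dendritic cell markers 3 rose (4.05% of all genes), Siglech (2.04), Batf3 (1.41) and Flt3 (0.62), all not called with the block. The dendritic cell sums were 1.14 to 1.34 on the STD arrays and 1.75 to 4.3 on the ATH arrays. Clec9a, like Xcr1 a marker of cross-presenting dendritic cells, differed by 0.80 (adjusted p = 0.128).

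Of 8 sinusoidal endothelial markers 2 rose, Lyve1 (1.21) and Fcgr2b (0.68, adjusted p = 0.0692 with the block), of 8 stellate cell markers none, and of 6 cholangiocyte markers 1, Sox9 (1.04). These counts are to be read against 4.05% of all genes called higher. Of 10 hepatocyte markers 2 fell (5.3% of all genes), Tat (-1.05) and Ass1 (-0.70, adjusted p = 0.0682 with the block), and Alb differed by -0.42. The hepatocyte list's median was -0.35 (summed signal 4018 to 4104 on the STD arrays and 2650 to 3512 on the ATH arrays). Over all genes tested the summed signal was 168282 to 175205 on the STD arrays and 127572 to 155306 on the ATH arrays. The 75th percentile itself was 0.45 higher on ATH, so without scaling each hepatocyte difference lies higher by that amount. None of the 10 was below background throughout a diet, which bears on the labelled tissue. The part of these cell markers in the chemokine differences was not tested.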

How the data were processed

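The members and gene lists were chosen with earlier results of these data known. The authors processed 8 one-color arrays with Agilent Feature Extraction version 9.5, and the deposited intensity files hold mean, background and processed signals with spot flags, the last with background removed and spatial trends corrected, on no common scale. They also deposited a table of log2 values, used here as an alternative. Spots of a probe were averaged without outlier-flagged spots, and from log2 values the 75th percentile of an array's probes, controls left out, was subtracted. Probes had to be well above background, positive and significant on 3 arrays of either diet. A linear model with moderated variances compared the diets (limma 3.58.1 under R 4.3.3), two-sided p-values were adjusted by the Benjamini-Hochberg method, and calls were made at 5%. The Methods used an unequal-variance test at 1%, run as an alternative. Named genes are those called, the 10 largest differences, the measured receptors with their ligands, Ccl2, and at most 4 called genes and the defining markers of each other list. Other genes, among them those listed under older names, were named after their values were seen.

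Probes were named for the other lists through a RefSeq table of assembly GRCm38.p6: 22951 by accession, 6659 by symbol, 3109 by synonym, while 8455 had no match and were not used for those lists. One gene that is included in the counts is not reported here. The number of arrays limits the precision. Replicate numbers mark the position on a slide, and the deviations of same-numbered arrays from their diet means correlated at 0.10, 0.23, 0.18 and 0.18 (of the differently numbered, STD 2 with ATH 1 also reached 0.18), so they were taken to pair the arrays and a blocked fit was run. The fit was tested on simulated data with known changes and the same SD on both diets. The wider ATH spread of the chemokine genes was not simulated. Alternatives were another background correction, scaling, filter, test, threshold, probe summary, the deposited values, the block and each array left out. The probe-by-probe values were added after seeing the data. Python version 3.11.15 was used for summaries.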

Additional observations from a re-analysis of the deposited data

Results flagged for a closer look

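Of 88 groups of 4 arrays examined among the named genes of the families, 3 held an array separated from the others by a gap over Dixon's critical value for groups of 4, where chance gives about 1 in 20. Ccl17 on ATH replicate 2 lay at -5.16, below the other ATH arrays at -4.42 to -4.54. Cxcl10 on ATH replicate 2 lay at 0.27, below the others at 2.57 to 3.01. Cxcl1 on STD replicate 3 lay at 2.55, above the other STD arrays at -0.36 to 0.10.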

How the results depend on the processing

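The count of genes called higher, 7 as reported, was 12 with normexp background correction, 24 without scaling, 4 without a detection filter, 0 by the Methods' unequal-variance test and 1 at a rate of 1%, and 2 to 24 with each array left out. The count called lower, 1, was 6 with normexp, 0 without scaling, with spike-in scaling, by the Methods' test, at 1% and with the median of a gene's probes, 2 among probes detected on all 8 arrays, and 0 to 1 with each array left out. Over all genes the share called was 9.35% as reported, 21.4% with normexp, 27.2% without scaling, 11.4% with spike-in scaling and 3.63% without the filter. It was 11.5% among genes detected on all arrays, 4.81% with the block, 0.64% at 1% and 1.41% to 14.8% leaving out single arrays. Called higher were 4.05% as reported, 5.62% with normexp, 25.9% without scaling and 1.57% without the filter. No such share is given for the Methods' test. By the Methods' test no gene of the families passed, while 31 of the 48 had an unadjusted limma p under 0.05. The median difference of 1.13 ran from 0.45 with normexp to 1.58 without scaling, and from 0.84 to 1.48 with each array left out. Called signaling genes, 9, were 16 with normexp, 24 without scaling, 3 without the filter, 0 by the Methods' test and at 1%, 3 with the replicate block, and 1 to 16 with each array left out. Called other chemotactic genes, 2, were 1 with median scaling and with spike-in scaling, 5 without scaling, 0 without the filter, by the Methods' test, at 1% and with the replicate block, and 0 to 4 with each array left out. With quantile normalization and median scaling the 8 called genes were the same genes.

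With the replicate number as a block, 8 genes of the families were called higher and 1 lower, 5 of them shared with the fit without it, and 4.81% of all genes were called. Ccr2 (adjusted p = 0.0551), Cxcl10 (0.0791) and Xcr1 (0.0501) were lost, and Ccl19 (0.0494), Cxcl4 (0.046), Cxcr4 (0.0482) and Ccr4 (0.0479) were gained. No other call among the 48 changed with the block.

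Signs turned where differences were small or probes disagreed, and the cause was not tested. With normexp the difference was -0.15 for Ccl1, -0.30 for Ccl11, -0.10 for Ccl17, -0.22 for Ccl28, -0.21 for Ccr10 and -0.20 for Ccr1l1. Without scaling it was 0.041 for Ccl25, 0.34 for Ccl27, 0.22 for Ccl9 and 0.14 for Cx3cr1, and with spike-in scaling 0.20 for Ccl27, 0.082 for Ccl9 and 0.0067 for Cx3cr1. By the median of the probes it was 1.41 for Cx3cr1 and 0.35 for Xcr1, and by the other probe 3.13 for Cx3cr1, 1.36 for Xcr1 and -0.51 for Cx3cl1. With each array left out, the difference ran from -0.076 to 0.30 for Ccl1, -0.10 to 0.32 for Ccl11, -0.051 to 0.37 for Ccl21c, -0.11 to 0.14 for Ccl28, -0.064 to 0.52 for Ccr10, -0.047 to 0.11 for Ccr1l1, -0.13 to 0.18 for Cxcl11 and -0.64 to 1.53 for Cxcl13.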
